A study of Homo sapiens with 4 samples.

Results

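Retained-intron transcripts are annotated isoforms in which at least 1 intron stays in the RNA and no protein-coding reading frame is assigned. The transcripts described here were chosen by level. Each had a mean normalized count of at least 100, and its gene also listed a protein-coding transcript at 100 or more. Each was then paired with the coding transcript of highest level from the same gene. This rule took 1830 of the 11560 retained-intron transcripts in a table of 75165 transcripts, and the 1830 transcripts belonged to 1392 genes. They are annotated isoforms and not independent samples, because several can come from 1 gene and share its exons.

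The libraries came from MDA-MB-231 cells, an established line of triple-negative breast cancer, in which transcripts bound by YTHDC1 were sought by RNA immunoprecipitation and sequencing (RIP-seq). In all 4 libraries the cells carried a 3x flag-YTHDC1 construct delivered by lentivirus and expressed from a CMV promoter, had been selected with puromycin, were crosslinked with UV, and were taken as isolated nuclei. The IP group (2 libraries) held RNA recovered from the nuclear lysate with an anti-Flag antibody, and the input group (2 libraries) held RNA of the lysate before recovery. According to the methods, ribosomal RNA was removed from the RIP-seq RNA before library construction, and no step of poly(A) selection is described for it. The levels below may therefore include RNA that is not polyadenylated. The value used here, the mean normalized count, was the authors' mean over all 4 libraries, so every level below mixes IP and input, has no SD, and permits no comparison of the groups and no test. According to the methods, the table keeps transcripts that reached 5 reads in 50% or more of the libraries, so a transcript that is not listed may still have had a few reads. The depth of each library is unknown from this value, and cells without the construct were not analysed here. The summed levels of the line's markers were 80785 for VIM, the mesenchymal filament vimentin, and 10.0 for CDH1, the epithelial E-cadherin. No transcript of ESR1 or PGR, the hormone receptor genes that triple-negative cells lack, was in the table, while ERBB2 had 4303.

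Introns are normally removed while the transcript is still attached to chromatin, but some remain in polyadenylated RNA. Such RNA is often held in the nucleus, where the intron can later be spliced out or the RNA degraded, and RNA that reaches the cytoplasm with a premature stop codon can be removed by nonsense-mediated decay. Genes for splicing regulators are known for isoforms of this kind, through which several of them limit their own protein. YTHDC1 is the nuclear reader of N6-methyladenosine (m6A) and is known for roles in splicing and RNA export.

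Retained-intron transcripts held a small share of the RNA counted, and a few of them exceeded the coding transcript of their gene by a wide margin. All retained-intron transcripts together held 3.57% of the summed level, against 74.2% for protein-coding transcripts, and the 1830 paired transcripts held 76.0% of the retained-intron level. The median level was 214 (quartiles 138 and 423), and 852 of the 1830 (46.6%) lay below 200. The median transcript reached 17.5% of its coding partner (quartiles 6.41% and 46.5%), a log2 ratio of -2.51. In 1393 pairs (76.1%) the retained-intron transcript was more than 2-fold below the partner, in 370 (20.2%) it was within 2-fold, and in 67 it was more than 2-fold above. It was above the partner at all in 205 pairs (11.2%) from 187 genes. Against the sum of the gene's coding transcripts, 117 (6.39%) were above.

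**Figure D1:**
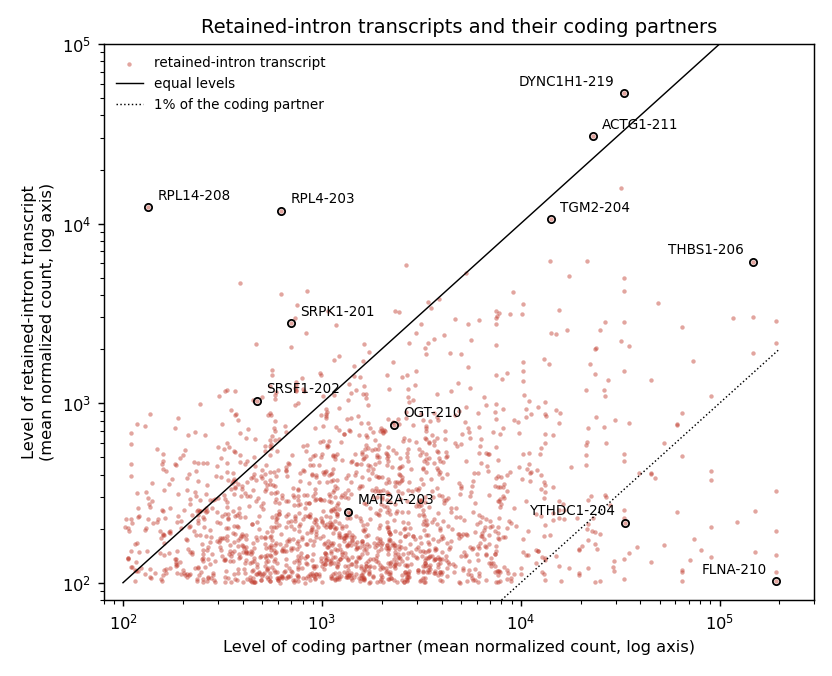
Mean normalized count of each retained-intron transcript (vertical log axis) against that of its coding partner (horizontal log axis), 1 point for each of the 1830 pairs, with lines for equal levels (solid) and for 1% of the partner (dotted) and with some transcripts named. Most points lie below the line, 205 lie above it, and the floor at 100 on both axes is set by the rule that chose the pairs.

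The floor at 100 shapes these ratios, since no transcript that was kept can be below 100 divided by its partner's level. Among genes with a coding partner at 100 to 300, the median log2 ratio was 0.04 and 107 retained-intron transcripts were above their partners. At partner levels of 10000 or more the median was -5.98 and 2 were above. Among the retained-intron transcripts kept, the median level was 196, 204, 202 and 222 in the classes up to a partner level of 10000 and 372 beyond it. These medians leave out every transcript below 100, so they do not show how retained-intron level changes with coding level. The share of genes with a transcript past the floor rose from 6.84% in the lowest class to 41.4% in the highest. At the floor, CORO1B-203, MZT2A-204 and MAU2-208 were just inside with 100.08, 100.12 and 100.21. TMEM129-204, CYBC1-205 and WFS1-204 were just outside with 99.99, 99.96 and 99.64.

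Counts were not divided by transcript length, and the counting program shared reads from common exons among a gene's isoforms. The levels given next therefore do not rank the genes by number of molecules, and a ratio within a gene also depends on the lengths of its 2 transcripts.

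The 15 transcripts of highest level came from 14 genes with different tasks. DYNC1H1-219 (ENST00000643684.1) had a mean normalized count of 53041 against 32969 for its partner DYNC1H1-216, a ratio of 1.61. DYNC1H1 (chr14:101964573-102056443, plus strand, GRCh38.p14) encodes the heavy chain of cytoplasmic dynein 1, the motor that moves cargo along microtubules. ACTG1-211, from the gene of cytoplasmic gamma-actin, had 30683 against 23078, while all coding transcripts of ACTG1 together had 60851. ACTN4-210, from the gene of the actin crosslinker alpha-actinin-4, had 15810 against 31883, or 49.6% of its partner. TGM2-204, from the gene of the protein-crosslinking enzyme transglutaminase 2, had 10603 against 14196. MICAL2-221 stood 2.22-fold above its partner, at 5901 against 2663, in the gene of an enzyme that oxidises actin. THBS1-206, from the gene of the matrix protein thrombospondin-1, also had a high level (6135) but was only 4.19% of a partner at 146431. A high level therefore occurred with ratios on either side of 1.

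The others among the 15 highest were EIF4G1-233 at 6159 (28.6% of its partner), ALDOA-212 at 6151 (43.7%) and LMNA-217 at 5117 (29.3%). EIF4G1 is the scaffold of the cap-binding complex, ALDOA a glycolytic aldolase and LMNA the gene of lamins A and C. OAZ1-208 had nearly the level of its partner, 5333 against 5285. OAZ1 encodes an antizyme that lowers polyamine synthesis. The remaining 5 of the 15 were DYNC1H1-241, at 4957, and RPL14-208, RPL4-203, RPL17-219 and PCNX1-209.

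DYNC1H1 also had the most transcripts of this kind, 11, between 105 and 53041, which together reached 68267 and made up 48.3% of the gene's summed level. FLNA, which encodes the actin crosslinker filamin A, had 7 that made up 1.81% of its level. SPG7, which encodes the mitochondrial protease paraplegin, also had 7, and they made up 23.3%. The same number of isoforms thus went with very different shares of the gene. ITGA3, the gene of integrin alpha 3, had 6, making up 6.22%. TRIM28, LAMA5, PKM, TRIO and ACADVL had 5 each, with shares between 2.28% for PKM and 21.3% for TRIM28. Of the 1392 genes, 1089 (78.2%) had a single one.

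The highest ratios were found in genes of the ribosome. RPL14-208 had 12302 against 134 for RPL14-202, a ratio of 92.0, and held 98.5% of the level of RPL14 (chr3:40457339-40468587, plus strand). RPL4-203 had 11805 against 624 for RPL4-217, a ratio of 18.9, and RPL4-205 had 4032, a ratio of 6.46. RPL17-219 had 4650 against 387, a ratio of 12.0. RPL14, RPL4 and RPL17 encode proteins of the large ribosomal subunit. Ribosomal protein genes have many processed pseudogenes with near-identical sequence, so how their reads were divided is uncertain. In RPL4 (chr15:66498015-66504855, minus strand) a processed transcript, RPL4-209, held a further 33.2% of the gene's level, and the coding partner held 2.43%.

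Beyond the ribosome, the highest ratios came from genes with different tasks, many with a partner just above 100. HAUS5-205, from the gene of a subunit of the spindle complex augmin, had 867 against 137, a ratio of 6.32. NEK9-210, from the gene of a mitotic kinase, had 678 against 109, a ratio of 6.19. In both of these genes nonsense-mediated-decay transcripts took a further share, 34.2% of HAUS5 and 17.0% of NEK9. Ratios of 5.74 for ADH5-210, 5.42 for NUP88-210, 4.36 for METTL2A-202 and 4.18 for WDR90-224 likewise rested on partners between 110 and 189. ADH5 encodes an enzyme that clears formaldehyde, NUP88 a nuclear pore protein and METTL2A a tRNA methyltransferase.

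In 4 more of the 15 highest ratios, outside the ribosome, the partner was not near the floor. PCNX1-209 had 4238 against 845, a ratio of 5.01. BDP1-204 had 3515 against 750, a ratio of 4.69, and BDP1 encodes a subunit of TFIIIB, which recruits RNA polymerase III. SPTY2D1-202, from the gene of a histone chaperone, had 2140 against 464, a ratio of 4.61. BUB1-207 had 2964 against 731, a ratio of 4.05, and BUB1 encodes a kinase of the spindle checkpoint. In BDP1 and BUB1 the retained-intron transcripts held 75.7% and 73.3% of the gene's level.

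The lowest ratios lay in genes of the actin cytoskeleton. FLNA-210 had 102 against 191725 for FLNA-203, or 0.0534% of it. MYH9-209, from the gene of non-muscle myosin heavy chain IIA, had 148 against 151538, or 0.0975%. The other 3 of the 5 lowest, FLNA-212, FLNA-209 and FLNA-213, were between 0.0599% and 0.101% of the same FLNA partner. All 5 had levels under 200 beside a very abundant partner. In 60 pairs the retained-intron transcript was under 1% of the partner.

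Within whole genes, coding transcripts mostly prevailed. The most abundant transcript was coding in 1157 of the 1392 genes (83.1%), a retained-intron transcript in 163 (11.7%), a nonsense-mediated-decay transcript in 44 (3.16%) and a processed transcript in 28 (2.01%). The paired retained-intron transcripts held a median of 11.8% of the gene's summed level (quartiles 5.36% and 24.9%). They held over 50% in 85 genes (6.11%) and over 80% in 4.

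SR proteins bind exons and guide splice-site choice, and their genes were the list examined in most detail. Of 13 SR protein genes with a coding transcript at 100 or more, 5 (38.5%) had a retained-intron transcript at that level, against 1392 of all 9766 such genes (14.3%). The list is small, and with a coding transcript at 1000 or more the counts were 2 of 6 (33.3%) against 801 of 3652 genes (21.9%). SRSF1-202 (ENST00000578430.1) had 1032 against 474 for SRSF1-208, a ratio of 2.18. SRSF1 (chr17:57989038-58007246, minus strand) encodes the founding member of the family, and its level was made up of 40.7% retained-intron, 33.5% nonsense-mediated-decay and 24.2% coding transcripts. In TRA2B (chr3:185914558-185938014, minus strand), which encodes a splicing activator related to the SR proteins, TRA2B-211 had 750 and TRA2B-213 had 413 against 1015 for TRA2B-203. Retained-intron transcripts held 47.2% of TRA2B. SRSF1-202 was the only transcript of the SR list above its coding partner, beside 11.2% of all 1830 pairs.

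The other SR protein genes had lower values. SRSF10-213 had 151 against 346, or 43.5% of its partner. SRSF5-212 had 105 against 420, or 24.9%. SRSF4-208 had 128 against 2823, or 4.52%. SRSF2 had no retained-intron transcript at 100 or more, and 90.4% of its level lay in nonsense-mediated-decay transcripts. SRSF6, SRSF11 and TRA2A likewise had none at 100, and their most abundant transcripts were of the class named processed transcript, SRSF6-206 at 1380, SRSF11-208 at 1000 and TRA2A-204 at 404. SRSF7 listed no retained-intron transcript and was 91.3% coding, and SRSF3 was 73.3% coding with 4.07% in retained-intron transcripts, all below 100.

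CLK and SRPK kinases phosphorylate SR proteins, and OGT, which attaches N-acetylglucosamine to nuclear and cytoplasmic proteins, is a well-known case of a gene with an intron detained in the nucleus. Of 7 genes of this list with a coding transcript at 100 or more, 2 (28.6%) had a retained-intron transcript at that level, against 14.3% of all genes. With a coding transcript at 1000 or more it was 1 of 4 (25.0%), against 21.9%. SRPK1-201 had 2789 against 699 for SRPK1-204, a ratio of 3.99, and SRPK1-213 had 208. Retained-intron transcripts held 52.3% of SRPK1 (chr6:35832966-35921098, minus strand). OGT-210 had 760 and OGT-208 had 163 against 2310 for OGT-202, and retained-intron transcripts held 24.6% of OGT (chrX:71533104-71575892, plus strand). Both genes had 2 such transcripts, of which the larger exceeded its partner in SRPK1 and reached 32.9% of it in OGT.

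CLK1 lay outside the pairs because it had no partner. CLK1-211 had 104, but the highest coding transcript, CLK1-205, had 64. Retained-intron transcripts held 46.4% of CLK1, at low level. CLK3-222 was under the floor at 98.8, and the 2 retained-intron transcripts of CLK4 together reached 69.0. CLK2 listed none, and its processed transcript CLK2-205 had 199 against 235 for the coding CLK2-202. OGA, which removes the sugar that OGT adds, also listed none, while its processed transcript OGA-209 had 1034.

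Among 19 genes of the m6A machinery with a coding transcript at 100 or more, 4 (21.1%) had a retained-intron transcript at that level, against 14.3% of all genes. With a coding transcript at 1000 or more there were 2 of 12 (16.7%), against 21.9% of all genes. MAT2A makes S-adenosylmethionine, the methyl donor, and its splicing is known to be regulated by methylation of its own RNA. MAT2A-203 had 249 and MAT2A-204 had 163 against 1357 for MAT2A-201, and retained-intron transcripts held 22.0% of MAT2A (chr2:85539168-85545281, plus strand). METTL3-209, from the gene of the m6A methyltransferase, had 165 against 843, or 19.6%. IGF2BP3-206, from the gene of a cytoplasmic m6A-associated RNA-binding protein, had 105 against 155, or 67.5%. None of the 5 transcripts of this list was above its partner, beside 11.2% of all 1830 pairs.

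YTHDC1 itself (chr4:68310387-68350090, minus strand) had the lowest ratio of the m6A list. YTHDC1-204 had 216 against 33599 for YTHDC1-207, or 0.644%, and retained-intron transcripts held 0.390% of the gene. All libraries carried the YTHDC1 construct, so RNA from the vector and RNA from the gene cannot be told apart in the coding transcripts.

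**Figure D2:**
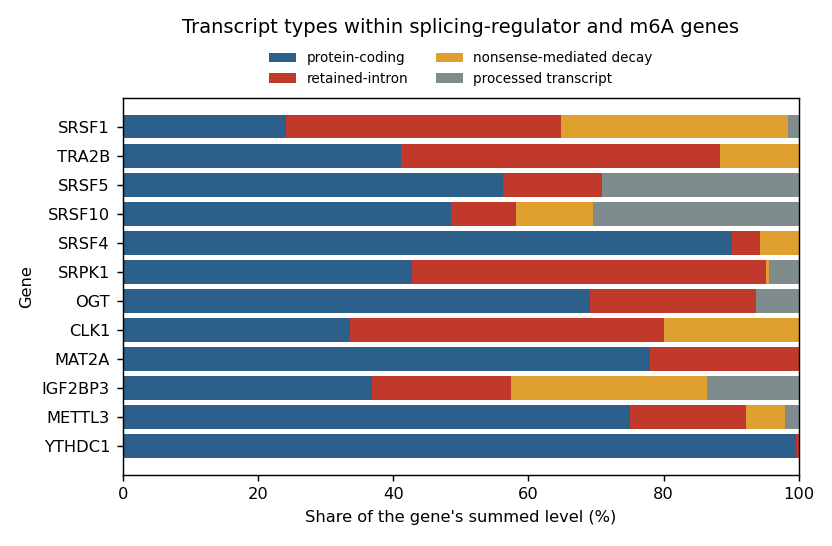
Share of each gene's summed mean normalized count (horizontal axis, percent) in coding, retained-intron, nonsense-mediated-decay and processed transcripts, for 12 genes of splicing regulation and the m6A machinery. The retained-intron share is 52.3% in SRPK1, 47.2% in TRA2B and 40.7% in SRSF1, and 0.390% in YTHDC1.

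The lists for splicing and RNA processing held further transcripts, nearly all below their partners. Over all 1830 pairs 11.2% were above, with 52.7% at partner levels of 100 to 300 and 2.11% at 1000 to 3000. The median coding level in these lists ran from 788 for export genes to 2407 for hnRNP genes, against 646 for all genes. Few transcripts above the partner are therefore not particular to these lists. DDX and DHX helicases, which remodel RNA, had such transcripts in 14 of 42 genes (33.3%), against 14.3% of all genes, with none of 18 above its partner. DDX24-206 was the most abundant of them, with 3066 against 7633. Core spliceosome genes had them in 12 of 54 (22.2%), with none of 21 above. SNRNP200-208, from the gene of the helicase that unwinds U4 from U6 snRNA, had 4160 against 9193, or 45.2%. U2AF2-205, from the gene of the large subunit of the factor that binds the polypyrimidine tract, had 1884 against 4984, or 37.8%. PRPF8-213, from the gene of the protein at the core of the spliceosome, had 1186 against 26150, or 4.54%.

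The hnRNP genes, which encode abundant nuclear RNA-binding proteins, had them in 7 of 25 (28.0%), beside the same 14.3% of all genes, with a median log2 ratio of -4.66 over 10 transcripts. HNRNPH1-243 was the most abundant, with 523 against 1186. RBM genes had them in 6 of 29 (20.7%), and RBM34-204 was above its partner with 460 against 183. Cleavage and polyadenylation genes had them in 6 of 21 (28.6%). NUDT21-205, from the gene of the small subunit of cleavage factor Im, had 295 against 133, a ratio of 2.22, whereas SYMPK-212 had 889 against 7407. Export factors had them in 3 of 24 (12.5%), below the 14.3% of all genes, led by NCBP3-205 with 219 against 1004. RBM34-204 and NUDT21-205 were the only transcripts of these 6 lists above their partners. With coding levels of 1000 or more the shares were 42.9% for the helicases, 33.3% for cleavage and polyadenylation, 31.8% for hnRNP, 26.3% for core spliceosome, and 25.0% for both RBM and export genes, against 21.9% of all genes.

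Lists outside RNA processing had both higher and lower shares, and 2 of them the highest of the 17 lists. Genes of actin, tubulin and intermediate filaments had such transcripts in 20 of 34 (58.8%), and glycolytic genes in 8 of 16 (50.0%). Their median log2 ratios were -6.17 over 34 transcripts and -7.28 over 12. These lists held genes of very high coding level, as in GAPDH, where GAPDH-206 had 219 against 122927. With coding levels of 1000 or more the shares were 64.5% and 53.3%, against 21.9% of all genes. The median coding levels of these 2 lists were 13854 and 6652. Among all genes the share was 25.1% at 3000 to 10000 and 41.4% at 10000 or more, so 21.9% is a low background for them. Translation factors had them in 14 of 40 (35.0%), and in 9 of 25 with a coding level of 1000 or more. Of their 26 transcripts 4 were above their partners, against 11.2% of all 1830 pairs, beside a median log2 ratio of -2.09. Among those below, EIF3C-208 had 3544 against 10214 (34.7%). EEF1A1-207 had 2986 against 116693 (2.56%), and EEF2-203 had 1717 against 73616 (2.33%). The 4 above their partners are given next. EIF1-205, from the gene of a factor for start-codon choice, had 1426 against 562, and EIF2S1-203, from the gene of the alpha subunit of eIF2, had 760 against 314. EIF5-208 had 689 against 661, and EIF3M-207 had 411 against 334.

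Cytosolic ribosomal protein genes had them in 18 of 78 (23.1%), against 14.3% of all genes. With coding levels of 1000 or more the share was 21.7% (15 of 69), against 21.9% of all genes. The median coding level of the 78 genes was 6058, and among all genes at 3000 to 10000 the share was 25.1%. Of the 22 transcripts of this list 6 were above their partners, against 11.2% of all 1830 pairs, beside a median log2 ratio of -4.40. Apart from the 4 of RPL14, RPL4 and RPL17, these were RPS23-203 with 3275 against 2325 and RPL8-204 with 3201 against 2450. Cyclins and cyclin-dependent kinases had them in 7 of 29 (24.1%), and in 36.4% with a coding level of 1000 or more. CCND1, which encodes cyclin D1, had 4 of them, CCND1-202, CCND1-204, CCND1-205 and CCND1-206 with 3254, 2985, 2752 and 820 against 7503 for CCND1-201. CCNL1-218, from the gene of a cyclin tied to splicing, was close to its partner at 251 against 235.

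The TGF-beta and SMAD pathway is known for its part in metastasis, and its genes stood near the share of all genes, with 5 of 33 (15.2%). ZEB1-209, from the gene of a transcription factor of epithelial-mesenchymal transition, had 623 against 550, while all coding transcripts of ZEB1 together had 1117. ACVR2B-203, from the gene of an activin receptor, had 313 against 262. SMAD3-212 and SMAD3-207, from the gene of the pathway's signal transducer, had 399 and 118 against 8538. SKI-203 had 420 against 6840, and LTBP3-214 had 112 against 933. SKI is a repressor of SMAD signalling and LTBP3 binds latent TGF-beta. Oxidative phosphorylation genes had them in 6 of 56 (10.7%) and chaperones in 5 of 36 (13.9%), against 14.3% of all genes. ATP5F1D, which encodes a subunit of ATP synthase, had 2, at 931 and 845 against 1044. HSP90B1-209, from the gene of the chaperone of the endoplasmic reticulum, had 1642 against 13797. With a coding level of 1000 or more the shares were 26.3% for oxidative phosphorylation, 20.0% for the TGF-beta and SMAD pathway and 19.0% for chaperones, against 21.9% of all genes.

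**Figure D3:**
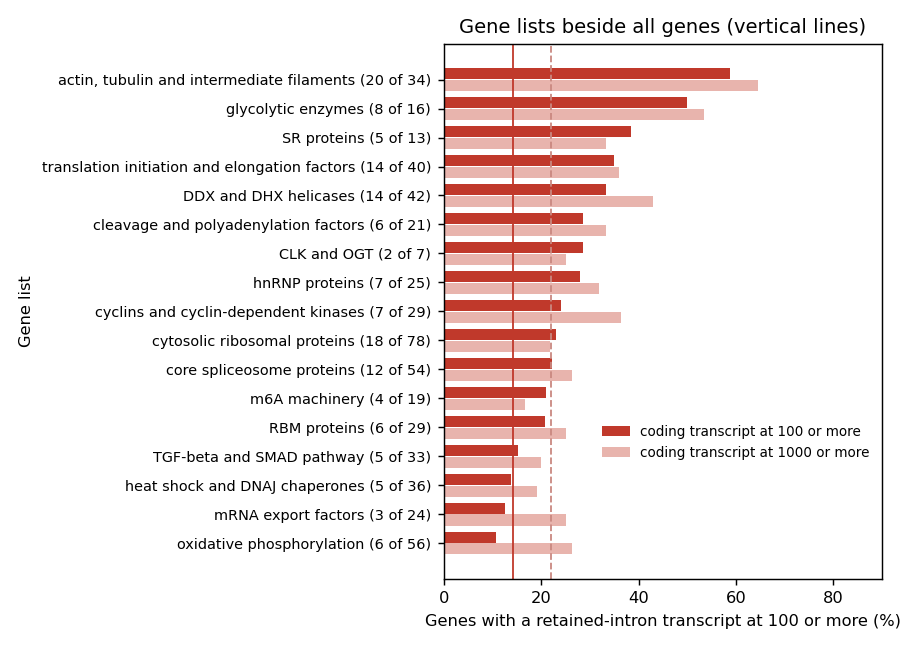
Percentage of genes with a retained-intron transcript at 100 or more (horizontal axis), among genes with a coding transcript at 100 or more (dark bars) and at 1000 or more (pale bars), for 17 gene lists. The vertical lines mark all genes, 14.3% (solid) and 21.9% (dashed), and the longest bars are those of actin, tubulin and intermediate filaments (58.8%) and glycolytic enzymes (50.0%).

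The share of genes with a retained-intron transcript past the floor was higher at higher coding level. It was 6.84% of 2604 genes at 100 to 300, 11.8% of 3510 at 300 to 1000, 18.5% of 2340 at 1000 to 3000, 25.1% of 1068 at 3000 to 10000, and 41.4% of 244 at 10000 or more. With the floor of 100 dropped on the retained-intron side, 4448 of the 9766 genes (45.5%) listed at least 1 such transcript. These held a median of 8.28% of the gene's level in the lowest class of coding level and 1.20% in the highest, with 4.40% over all. This order is partly set by the read filter and by the coding level in the denominator, since only a large share can be listed in a gene of low level. Summed over all genes of a class, retained-intron transcripts held 8.77%, 6.76%, 4.19%, 2.82% and 3.22% of the level from the lowest class to the highest.

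The share was also higher in genes with more listed isoforms. Of genes with 1 to 3 listed transcripts 2.69% (90 of 3351) had a retained-intron transcript at 100 or more, and of those with 11 or more 42.4% (410 of 967). The 1392 genes listed a median of 8 transcripts and the other genes 4. These counts include the retained-intron transcript and its partner, so the rule itself sets part of this difference, and a gene with a single listed transcript could not be chosen. Their median gene spans were close, 32252 and 30587 bases in RefSeq.

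Nonsense-mediated-decay and processed transcripts, were put through the same rule. The 1774 nonsense-mediated-decay transcripts had a median log2 ratio to their partners of -1.47, and 367 (20.7%) were above. The 1772 processed transcripts had -2.17, and 204 (11.5%) were above. The 9162 further coding transcripts had -1.78 and by construction none above. With 1 transcript per gene the medians were -2.16 for retained-intron, -1.33 for nonsense-mediated-decay and -1.98 for processed transcripts, and the shares above the partner were 13.4%, 22.7% and 12.9%. Retained-intron and processed transcripts thus had close shares above the partner, in an order that turned with 1 per gene. In the 345 genes that held both, the nonsense-mediated-decay transcript was the higher in 207 and the retained-intron transcript in 138, with a median log2 ratio of -0.30. Those 345 genes were 24.8% of the genes with a retained-intron transcript and 23.7% of the genes with a nonsense-mediated-decay transcript. Over all genes with a coding transcript at 100 or more, 14.3% had a retained-intron and 14.9% a nonsense-mediated-decay transcript. The spread within each class was wide, with quartiles of -3.96 and -1.10 for retained-intron and of -2.77 and -0.23 for nonsense-mediated-decay transcripts.

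**Figure D4:**
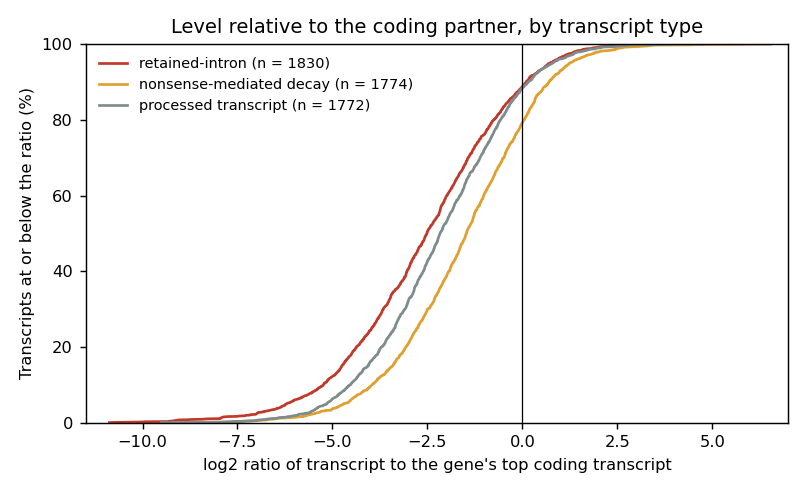
Cumulative percentage of transcripts (vertical axis) by log2 ratio of the transcript's mean normalized count to that of its coding partner (horizontal axis), for retained-intron, nonsense-mediated-decay and processed transcripts. The curve for retained-intron transcripts lies to the left, with a median of -2.51 against -1.47 for nonsense-mediated decay and -2.17 for processed transcripts.

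The share of genes with a retained-intron transcript also differed between chromosomes. It was highest on chromosome 16 (107 of 455 genes, 23.5%), chromosome 17 (135 of 612, 22.1%) and chromosome 19 (149 of 750, 19.9%). It was lowest on chromosome 10 (18 of 386, 4.66%), the X chromosome (5.33%) and chromosome 1 (77 of 994, 7.75%). Across these 6 chromosomes the share with a processed transcript was higher where the retained-intron share was low, at 23.8% of genes on chromosome 10, 20.7% on chromosome 1 and 16.9% on the X chromosome, and 10.5%, 12.7% and 10.9% on chromosomes 16, 17 and 19. Not every chromosome followed this, since chromosome 11 was high in both classes (18.4% and 17.5%) and chromosome 6 low in both (55 and 57 of 498 genes). Nonsense-mediated-decay transcripts had shares on the side of the retained-intron transcripts, with 10.1%, 10.3% and 9.72% of genes on chromosomes 10, 1 and X and 17.6%, 22.1% and 16.0% on chromosomes 16, 17 and 19. The median number of listed transcripts per gene was 4 on chromosomes 10, 1 and X and 5 or 6 on chromosomes 16, 17 and 19. The share of genes with either class ranged from 19.9% on chromosome 6 to 31.3% on chromosome 21. The table listed 0.379 retained-intron transcripts for each processed transcript on chromosome 10 and 0.587 on chromosome 1, but 2.60, 2.72 and 2.79 on chromosomes 16, 17 and 19. The part that the naming of the classes and the number of listed transcripts had in these shares was not tested.

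**Figure D5:**
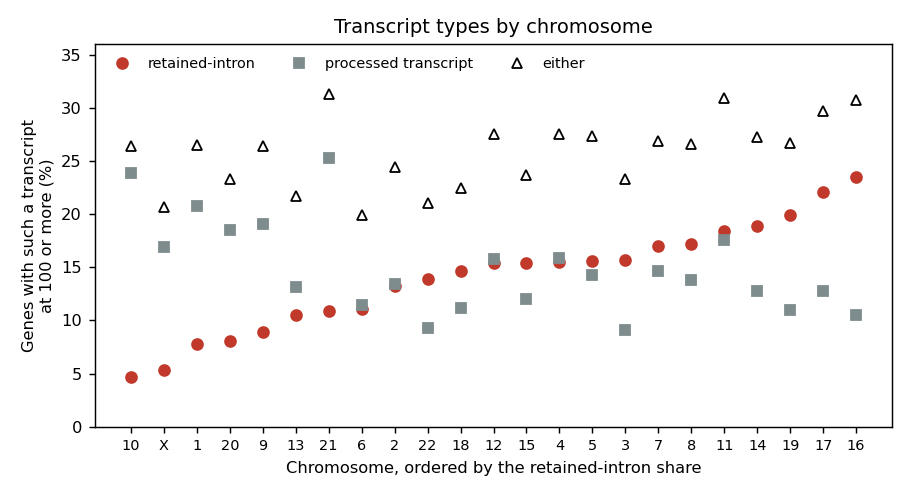
Percentage of genes with a coding transcript at 100 or more that also had a retained-intron or a processed transcript at 100 or more, or either of them (vertical axis), for each chromosome in order of the retained-intron share (horizontal axis). Chromosome 10 had 4.66% for retained-intron and 23.8% for processed transcripts, and chromosome 16 had 23.5% and 10.5%.

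A further 124 retained-intron transcripts at 100 or more, from 111 genes, had no partner. In 75 of these cases the gene listed a coding transcript below 100, and in 49 it listed none. The other 9606 retained-intron transcripts were below 100.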

How the data were processed

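The authors aligned the reads of the 4 RIP-seq libraries to GRCh38 with STAR (2.7.2b) and estimated transcript counts with RSEM (1.2.31) under GENCODE annotation, as their methods and processing notes state. RSEM divides reads among isoforms, so levels of isoforms that share exons depend on each other. The methods state that transcripts reaching 5 reads in 50% or more of the libraries were kept. The only measurement used from the deposited table was a signal pooled by the authors, the average of a transcript's normalized counts across the 4 libraries, with no value per library. Its other columns hold the authors' own comparison of IP with input (fold change, its error, p-values) and were not used. Columns of samples of other series numbered 0.

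Transcript types and gene identifiers were read from the table. Pairs, ratios and shares were computed with Python 3.11.15 and pandas 2.3.3, after testing on simulated data. No comparison between groups and no test was made, and depth and precision per library are unknown. The alternatives were other minimum levels, the summed coding level, 1 transcript per gene and genes with 1 coding transcript past the minimum. The members and the 17 gene lists were chosen with earlier results of these data known. Named transcripts were the 15 of highest level, the 15 of highest and 5 of lowest ratio, the 5 genes with most (with ties), 3 on each side of the minimum, all in the SR, CLK and OGT, and m6A lists, and up to 3 of each other list. Of these, 1 transcript is not reported here. Further names, such as GAPDH-206, EIF5-208, EIF3M-207, CCNL1-218, NUDT21-205 and the processed transcripts, were chosen after their values were seen. Gene positions are from RefSeq (GRCh38.p14), matched by symbol for 97.8% of the 9766 genes.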

Additional observations from a re-analysis of the deposited data

How the results depend on the processing

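With a minimum of 50, the number of retained-intron transcripts was 3254, the share of genes 20.3%, the median log2 ratio -3.13, the share above the partner 8.05% and the median share of the gene's level 9.29%. With 200 the values were 927, 9.10%, -1.92, 14.1% and 15.6%, and with 500 they were 340, 5.09%, -1.58, 17.6% and 18.7%. Against the summed coding level the median log2 ratio was -3.09 and 6.39% were above. With 1 transcript per gene the median was -2.16, 13.4% were above and the share of the gene's level was 10.8%. In genes with exactly 1 coding transcript at 100 or more the values were 564, 9.45%, -1.64, 19.5% and 21.7%. The median stayed below 0 in each of these settings. Leaving out DYNC1H1 or the cytosolic ribosomal protein genes, both chosen after seeing the data, moved none of the 5 values beyond the bounds set. Division by transcript length was not run, because no lengths were at hand. No paired analysis was possible because the values used are means over all 4 libraries, and for the same reason no library could be left out.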
